A study of Mus musculus with 20 samples.

Results

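Erythroid maturation and heme synthesis genes were followed in the right liver lobe of 20 male mouse fetuses of the outbred CD-1 IGS strain at embryonic day 18.5. Of these fetuses, 10 came from dams under maternal nutrient restriction (MNR) and 10 from control dams, with 2 littermates from each of 5 litters per group, and the sources used here do not say how the diet was restricted. The gene set held 38 genes, chosen by name for their part in red cell formation and listed under the symbols used with the mm9 mouse genome. All 38 were matched and passed the filter on low counts, among 17573 genes tested, and the lowest count of any of them in a litter was 174, for Icam4. A litter is named here by its group and a letter from A to E, and the same letter in both groups marks different dams. Counts were summed over the littermates, because the dam received the diet and the litter is then the replicate. The fetuses had 14925778 to 28016953 counts in all.

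In late gestation the fetal liver is still a site of red cell formation, and erythroblasts lie among the hepatocytes. Erythroid progenitors depend on erythropoietin, and the transcription factors Gata1, Klf1 and Tal1 switch on the genes of the mature cell. The maturing cell then builds a spectrin skeleton anchored to band 3, takes up iron through the transferrin receptor, and makes heme in a chain of enzymes that begins and ends in the mitochondrion. Last, it expels its nucleus and clears its mitochondria. In bulk liver RNA, fewer erythroid cells and less of a transcript per cell cannot be told apart.

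Promoter sequences are shown for genes that differ in how they followed the other members between litters, and were picked for illustration after the values were known. Of the 38 genes, 28 had an entry in the RefSeq promoter table (GRCm38.p6), and each of their 34 promoters of 300 bases (250 before the start site and 50 after it) matched mm9 exactly once. A GATA motif, meaning the letters GATA with an A or a T before them and an A or a G after them on either strand, lay in a promoter of 18 of these 28 genes (64.3%), against 8930 of 27025 genes in the whole table (33.0%). The Klf1-type motif CACCC lay on either strand in 21 of the 28 (75.0%), against 59.8% of all genes, and 14 genes held both motifs in one promoter. A match describes letters only, and its relation to how genes moved together between litters was not tested. Genes not printed went both ways in their Pearson r with Slc4a1 over the litters, described below. Icam4 (r = 0.923) holds 1 GATA match, whereas Tmod1 (r = 0.930) and Urod (r = 0.932) hold none, and Cpox (r = 0.523) holds 3. The 250 bases before the start site are printed 5′ to 3′ on the gene's own strand, with GATA motifs in capitals on whichever strand they read. Ermap (chr4:118862601-118862850, minus strand in mm9), Alas2 (chrX:146981710-146981959, plus strand) and Klf1 (chr8:87425631-87425880, plus strand) hold a single match each. Alad (chr4:62180944-62181193, minus strand) holds none. Uros has 2 start sites, of which the upstream one (chr7:140900979-140901228, minus strand) holds no match and the downstream one (chr7:140894184-140894433, minus strand) holds 2.
Ermap: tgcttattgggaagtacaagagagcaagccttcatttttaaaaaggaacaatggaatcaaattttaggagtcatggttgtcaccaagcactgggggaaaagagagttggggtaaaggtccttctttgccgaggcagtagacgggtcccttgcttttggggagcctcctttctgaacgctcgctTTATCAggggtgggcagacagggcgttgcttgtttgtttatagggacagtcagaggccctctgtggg
Alas2: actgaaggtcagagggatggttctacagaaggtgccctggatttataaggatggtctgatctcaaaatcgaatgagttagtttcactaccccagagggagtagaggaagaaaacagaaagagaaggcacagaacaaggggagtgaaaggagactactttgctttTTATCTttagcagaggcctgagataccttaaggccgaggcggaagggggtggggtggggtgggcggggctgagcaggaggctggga
Klf1: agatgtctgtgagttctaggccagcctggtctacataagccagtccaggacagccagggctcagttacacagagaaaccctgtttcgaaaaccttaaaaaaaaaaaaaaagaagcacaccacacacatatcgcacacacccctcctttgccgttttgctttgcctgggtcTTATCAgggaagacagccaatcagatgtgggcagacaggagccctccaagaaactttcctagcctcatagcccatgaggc
Alad: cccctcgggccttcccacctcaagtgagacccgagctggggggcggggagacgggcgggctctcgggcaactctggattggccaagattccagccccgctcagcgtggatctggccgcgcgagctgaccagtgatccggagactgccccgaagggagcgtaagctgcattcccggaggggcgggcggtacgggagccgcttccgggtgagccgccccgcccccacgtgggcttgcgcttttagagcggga
Uros upstream: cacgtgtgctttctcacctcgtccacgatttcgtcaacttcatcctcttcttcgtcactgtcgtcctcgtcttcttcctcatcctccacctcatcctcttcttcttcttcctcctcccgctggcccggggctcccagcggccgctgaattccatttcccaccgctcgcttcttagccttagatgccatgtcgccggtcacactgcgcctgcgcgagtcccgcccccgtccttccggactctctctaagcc
Uros downstream: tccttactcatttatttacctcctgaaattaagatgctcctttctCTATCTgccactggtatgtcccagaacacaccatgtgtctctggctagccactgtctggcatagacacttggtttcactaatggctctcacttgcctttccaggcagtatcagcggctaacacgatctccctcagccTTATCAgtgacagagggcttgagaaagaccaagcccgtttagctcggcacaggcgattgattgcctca

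None of the 38 genes differed between MNR and control litters past the threshold, an edgeR adjusted p under 0.05 over all genes tested. Of all 17573 genes, 117 passed (0.666%), so a count of 0 among 38 lies near that background. At an unadjusted p under 0.05 there were 2 of the 38 genes (5.26%), Bpgm and Tal1, against 19.6% of all genes. That count changed when single litters were left out, and so did the share of all genes. It was 8 without control litter B (23.3% of all genes), 6 without control litter E (17.5%) and 4 without MNR litter C (18.7%). Without control litter D (16.7%) or MNR litter E (16.5%) the count was 1. It was 0 with fetus 1 of each litter alone (10.5% of all genes) and 14 with fetus 2 alone (22.5%), and none of the 38 was called in either. The fold change was below 0 for 28 genes and above 0 for 10, with a median of -0.10 on the log2 scale, against -0.0027 for all genes. No gene had MNR and control litters that did not overlap, a pattern held by 4.5% of all genes. The 95% interval of the log2 fold change lay within ±0.5 for 29 genes and within ±1 for 37, Car1 being the exception. DESeq2 and an edgeR fit on the 20 fetuses as separate libraries each called 1 of the 38 genes, Bpgm. Of all genes they called 6.62% and 14.3%. Without control litter D the median log2 fold change was 0.0048 and 19 of the 38 genes lay below 0.

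**Figure D1:**
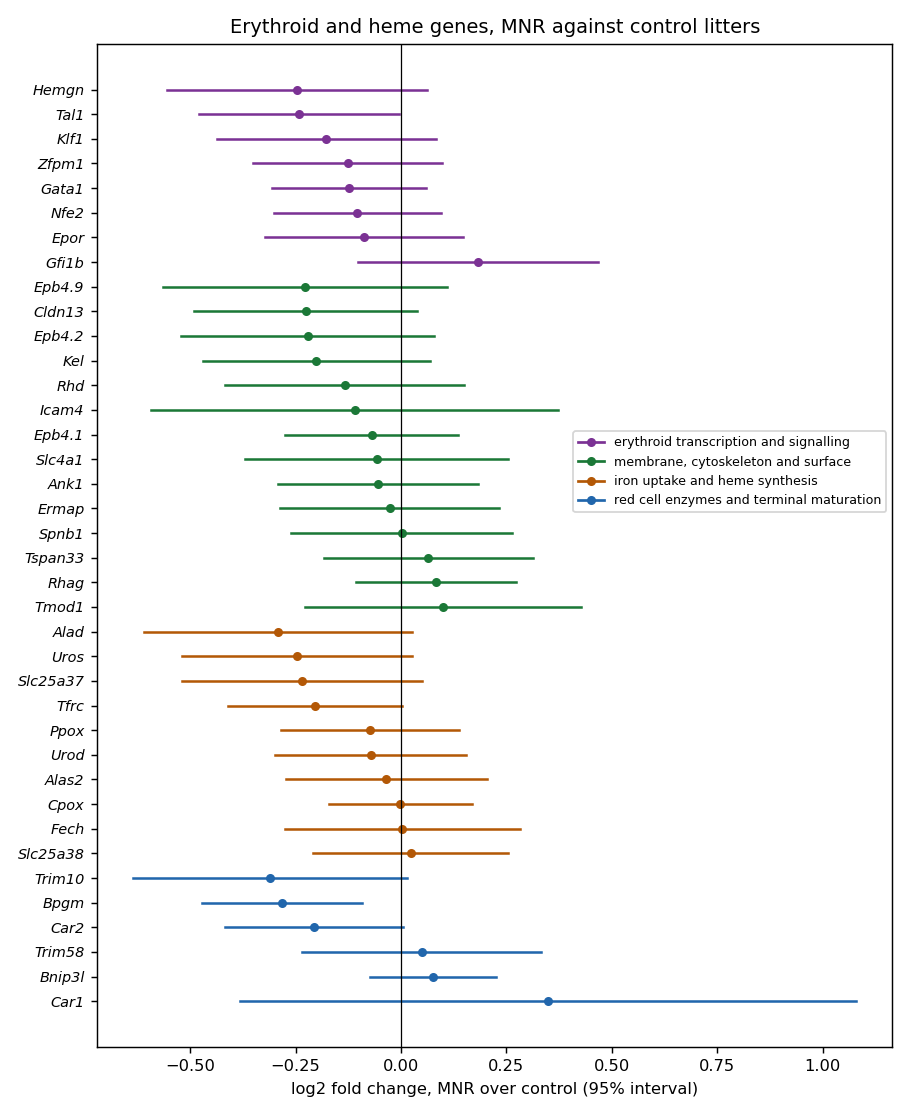
Log2 fold change of each of the 38 genes in MNR over control litters (point) with its 95% interval (line), grouped by role in colour and sorted within a role. 28 points lie left of 0 and 10 right of it, and only the intervals of Bpgm and Tal1 leave out 0.

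The 8 transcription and signalling genes had a median log2 fold change of -0.12, with 7 below 0 and none called. Gata1, the zinc finger factor that directs erythroid differentiation, had 40.2, 39.2, 41, 39 and 35.4 CPM in MNR litters, against 44.5, 38.8, 39.2, 51.4 and 38.2 CPM in control litters (litters A to E in order, here and below). CPM are counts relative to the scaled library total, which do not correct for gene length. Control litter D was highest and MNR litter E lowest, and the other litters overlapped (log2 fold change -0.12, 95% interval -0.31 to 0.06, adjusted p = 0.453). Klf1, an activator of adult beta globin and of many red cell genes, had 66.4, 65, 68.4, 55.9 and 49.6 CPM in MNR litters, against 74.2, 62.4, 65.5, 86.3 and 56.7 CPM in control litters. The same litters, control D and MNR E, were at the ends of its range (log2 fold change -0.18, 95% interval -0.44 to 0.08, adjusted p = 0.447). Tal1, a helix-loop-helix partner of Gata1, had 104, 108, 117, 92.5 and 78.6 CPM in MNR litters, against 124, 110.1, 122, 135 and 101 CPM in control litters. All 5 MNR litters lay under the control median, but 3 of them were above control litter E (log2 fold change -0.24, 95% interval -0.48 to -0.00, adjusted p = 0.246, unadjusted p = 0.0463).

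Epor, the erythropoietin receptor, had 27.1, 32.5, 32.2, 29.9 and 29.6 CPM in MNR litters, against 35.9, 27.6, 28.4, 40.5 and 28.2 CPM in control litters. Control litters D and A were highest and the other litters overlapped (log2 fold change -0.09, 95% interval -0.32 to 0.15, adjusted p = 0.696). Gfi1b, a repressor needed for erythroid and megakaryocytic maturation, had 26.4, 22.1, 29.3, 33.6 and 28.3 CPM in MNR litters, against 29.2, 21.4, 20.9, 29.8 and 21.7 CPM in control litters. It was the only one of the 8 with a fold change above 0, and all 5 MNR litters lay over the control median, while control litters A and D overlapped them (log2 fold change 0.18, 95% interval -0.10 to 0.47, adjusted p = 0.475). Hemgn, a nuclear protein of erythroid cells, had 157, 164, 159, 172 and 144 CPM in MNR litters, against 210.2, 152, 173, 261 and 146 CPM in control litters. Control litter D was highest, and all 5 MNR litters lay under the control median, with control litters B and E among them (log2 fold change -0.25, 95% interval -0.55 to 0.06, adjusted p = 0.368). The remaining genes were Nfe2, a subunit of a globin-activating factor (log2 fold change -0.10, 95% interval -0.30 to 0.09, adjusted p = 0.568), and Zfpm1, the cofactor of Gata1 (log2 fold change -0.13, 95% interval -0.35 to 0.10, adjusted p = 0.533).

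The 14 membrane, cytoskeleton and surface genes had a median log2 fold change of -0.06, with 10 below 0 and none called. Slc4a1, the anion exchanger band 3, was the most abundant of the 38 genes per length, at a mean of 741 TPM, a level corrected for transcript length. It had 1310.1, 1432, 1191, 1390.3 and 1165 CPM in MNR litters, against 1539, 1119, 1094, 1841 and 1161 CPM in control litters. Control litters D and A stood above all others, and the MNR litters lay within the control range (log2 fold change -0.06, 95% interval -0.37 to 0.25, adjusted p = 0.86). Spnb1, the beta chain of spectrin, had 486, 536, 465, 472 and 426 CPM in MNR litters, against 503, 447, 410.3, 627 and 395 CPM in control litters. Its group means were 477 ± 39.9 and 476 ± 94.2 CPM in MNR and control litters (SD, n = 5 each; log2 fold change 0.00, 95% interval -0.26 to 0.26, adjusted p = 0.996). Rhag, which carries the Rh proteins to the membrane, had 137, 129, 118, 106 and 111 CPM in MNR litters, against 111, 111, 105, 134 and 107 CPM in control litters. MNR litter A and control litter D were highest (log2 fold change 0.08, 95% interval -0.11 to 0.27, adjusted p = 0.631).

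Icam4, a blood group adhesion protein, was among the least abundant members, with 7.07, 7.71, 5.91, 7.55 and 4.6 CPM in MNR litters, against 7.68, 4.67, 6.02, 11.2 and 5.71 CPM in control litters. It was high in control litter D and low in MNR litter E and control litter B (log2 fold change -0.11, 95% interval -0.59 to 0.37, adjusted p = 0.823), and its exon overlaps the microRNA gene Mir1900 on the other strand. Cldn13, a claudin of mouse erythroid cells, had 34.4, 39.9, 50.9, 43.1 and 38.2 CPM in MNR litters, against 53.2, 39.4, 47.4, 58.5 and 42.9 CPM in control litters. Its groups overlapped, with control litter D highest and MNR litter A lowest (log2 fold change -0.23, 95% interval -0.49 to 0.04, adjusted p = 0.329). The other 9 genes ranged from -0.23 for Epb4.9, the actin-bundling protein dematin, to 0.10 for Tmod1, the tropomodulin that caps actin ends, on the log2 scale. Between them lay Epb4.2 and Kel, at -0.22 and -0.20, and Rhd at -0.13. Epb4.1, Ank1 and Ermap, the Scianna blood group protein, stood at -0.07, -0.05 and -0.03, and Tspan33 at 0.06. Their adjusted p-values ran between 0.403 and 0.926. Exons of Ank1, Epb4.1 and Tmod1 overlap genes on the other strand, and the sources used here do not say whether counting used strand.

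The 10 genes of iron uptake and heme synthesis had a median log2 fold change of -0.07, with 8 below 0 and none called. Tfrc, the transferrin receptor, had 398, 388, 372, 360.2 and 289 CPM in MNR litters, against 403, 409, 412, 483 and 376 CPM in control litters. All 5 MNR litters lay under the control median, with MNR litters A and B inside the control range and the other 3 below it (log2 fold change -0.20, 95% interval -0.41 to 0.00, adjusted p = 0.26). Slc25a37, the mitochondrial iron importer mitoferrin, had 731, 801, 734, 833 and 672 CPM in MNR litters, against 927, 762, 759, 1220.1 and 769 CPM in control litters. Control litters D and A were high, and MNR litters B and D stood above the other 3 control litters (log2 fold change -0.23, 95% interval -0.52 to 0.05, adjusted p = 0.352). Slc25a38, which carries glycine into the mitochondrion for the first step of heme synthesis, had a log2 fold change of 0.02 (adjusted p = 0.927).

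Alas2, the erythroid enzyme of that first step, had 485, 558, 476, 546 and 495 CPM in MNR litters, against 585, 465, 418, 639 and 517 CPM in control litters. Control litter D was highest and control litter C lowest, with every MNR litter between them (log2 fold change -0.04, 95% interval -0.27 to 0.20, adjusted p = 0.89), and its exons overlap those of Apex2 on the other strand. Cpox, which acts late in the chain, had 637, 592, 543, 534 and 549.8 CPM in MNR litters, against 533, 552, 568, 661 and 546 CPM in control litters. Its values varied little, by 1.24-fold from the lowest to the highest litter (log2 fold change -0.00, 95% interval -0.17 to 0.17, adjusted p = 0.992). Fech, the ferrochelatase that inserts the iron, had 391, 477, 420.2, 479.7 and 402 CPM in MNR litters, against 469, 401, 332, 567 and 399 CPM in control litters. Every MNR litter lay within the control range, whose ends were litters C and D (log2 fold change 0.00, 95% interval -0.28 to 0.28, adjusted p = 0.994). Alad and Uros, enzymes of the middle steps, had log2 fold changes of -0.29 (95% interval -0.61 to 0.03, adjusted p = 0.293) and -0.25 (95% interval -0.52 to 0.03, adjusted p = 0.302). Urod and Ppox, which act before and after Cpox, stood at -0.07 each, and exons of Ppox overlap those of B4galt3 on the other strand.

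Per length, the mRNAs of the heme chain differed widely in level. Alas2 averaged 496 ± 19.9 TPM in MNR litters and 511 ± 88.5 TPM in control litters (SD, n = 5 each). Alas1, the version of that enzyme used outside red cells, averaged 48.6 ± 8.81 TPM in MNR litters and 37.7 ± 1.82 TPM in control litters, and did not pass the test (log2 fold change 0.39, 95% interval 0.13 to 0.65, adjusted p = 0.115). Uros was lowest among the 8 erythroid steps, at 32.4 ± 3.83 TPM in MNR litters and 37.6 ± 8.10 TPM in control litters. Ppox followed at 78.8 ± 6.95 and 82.8 ± 12.2 TPM in MNR and control litters, and the other enzymes apart from Alas2 lay between 212 and 297 TPM on average in either group. Control litters spread more than MNR litters at every step of the chain shown except Cpox and Alas1.

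**Figure D2:**
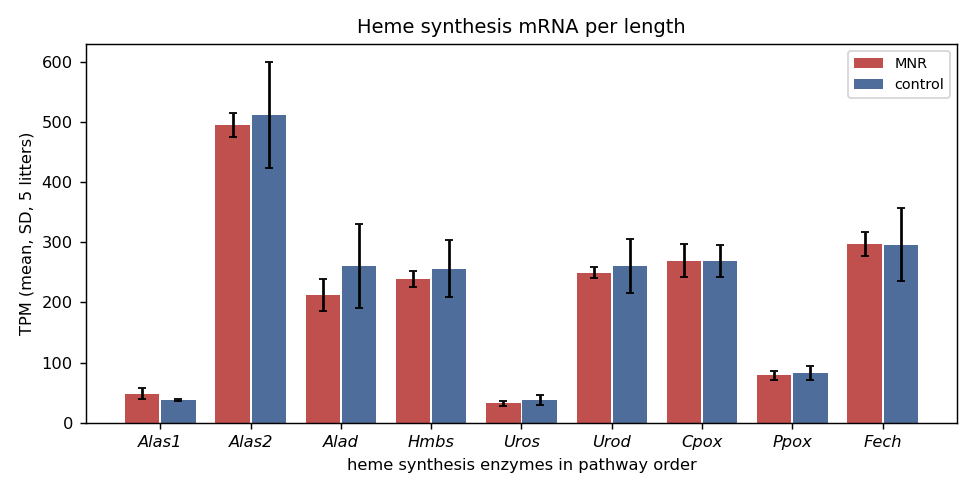
Mean TPM (a level per transcript length, scaled to the same sum in each fetus) of heme synthesis enzymes in pathway order, with SD over 5 MNR litters and 5 control litters; Alas1 is not among the 38 genes and is shown beside its erythroid counterpart. Alas2 stands highest, at 496 TPM in MNR and 511 TPM in control litters, and Uros is lowest among the erythroid steps.

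The 6 red cell enzyme and terminal maturation genes were split, with 3 log2 fold changes below 0 and 3 above. Bpgm, the mutase whose product lowers the oxygen affinity of haemoglobin, had 103, 126, 131, 115 and 120.3 CPM in MNR litters, against 166, 139, 123, 154 and 142 CPM in control litters. All MNR litters lay under the control median, and only control litter C lay inside the MNR range (log2 fold change -0.28, 95% interval -0.47 to -0.09, adjusted p = 0.114, unadjusted p = 0.00712). It had the smallest p of the 38 genes, and its adjusted p was 0.0365 in DESeq2, where 6.62% of all genes were called. In the edgeR fit on single fetuses, where 14.3% were called, it was 0.0359, but that fit counts littermates as independent. With litter as a random effect, limma-voom called none of the 38 genes and 6.74% of all genes. Car2, a carbonic anhydrase, had 514, 516, 503, 533 and 473 CPM in MNR litters, against 587, 523, 562, 744 and 515 CPM in control litters. All MNR litters lay under the control median, while MNR litter D exceeded control litters B and E (log2 fold change -0.21, 95% interval -0.42 to 0.00, adjusted p = 0.261).

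Trim10, a ubiquitin ligase family member of erythroid cells, had 83.4, 109, 104, 121 and 79.4 CPM in MNR litters, against 135, 104, 102, 163 and 112 CPM in control litters. It had the lowest log2 fold change of the 38 genes, with control litter D highest and MNR litter E lowest (log2 fold change -0.31, 95% interval -0.63 to 0.01, adjusted p = 0.272). Bnip3l, the receptor through which reticulocytes clear their mitochondria, had 212, 232, 207, 213 and 209 CPM in MNR litters, against 209.9, 206, 175, 221 and 208 CPM in control litters. It had the smallest spread of the 38 genes between litters, and MNR litter B was highest (log2 fold change 0.07, 95% interval -0.07 to 0.22, adjusted p = 0.581). Trim58, a ubiquitin ligase that takes part in expulsion of the nucleus, had a log2 fold change of 0.05 (adjusted p = 0.872). Car1, the other carbonic anhydrase, had 33.2, 34.2, 21, 38 and 57 CPM in MNR litters, against 15.9, 42.2, 47.8, 17.4 and 20.7 CPM in control litters. It was high in MNR litter E and control litters B and C, and low in control litters A and D, where most of the other genes were high (log2 fold change 0.35, 95% interval -0.38 to 1.08, adjusted p = 0.601). Littermates differed widely in Car1 too, with an SD within litters of 0.69 log2 units against a median of 0.19 over the 38 genes.

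**Figure D3:**
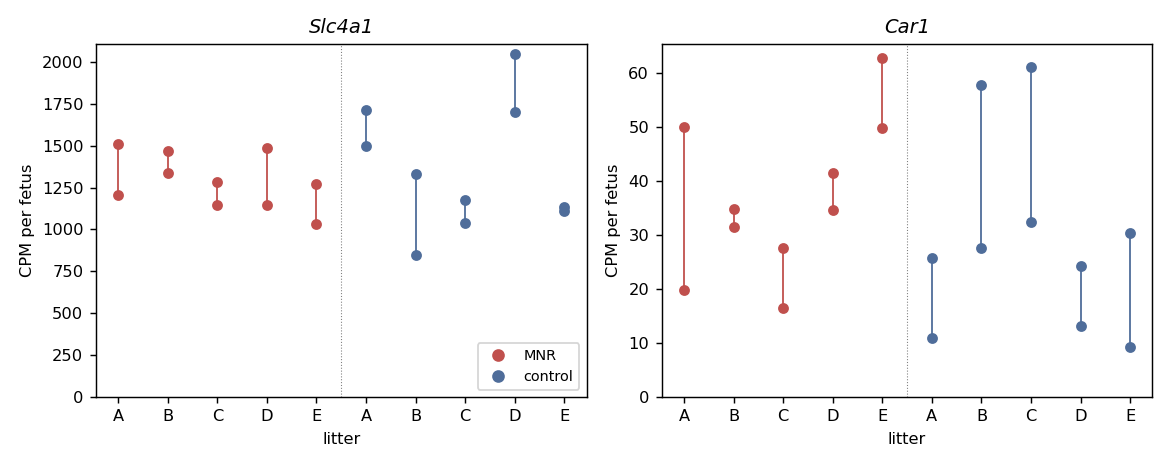
CPM (here relative to the unscaled total of gene counts) of Slc4a1 (left) and Car1 (right) in each fetus, with littermates joined by a line and MNR litters A to E left of control litters A to E. Slc4a1 reaches 2047.5 CPM in the first fetus of control litter D, where Car1 is at 13.2 CPM, and Car1 is highest, at 62.7 CPM, in the second fetus of MNR litter E.

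As a share of all gene counts, the 38 genes made up 0.797 ± 0.0426% in MNR litters and 0.862 ± 0.167% in control litters (SD, n = 5 each), a ratio of 0.924. MNR litters A to E held 0.823, 0.835, 0.795, 0.806 and 0.726%, against 0.930, 0.754, 0.761, 1.13 and 0.739% in control litters. The MNR litters lay close together, control litters D and A stood above all of them, and the other 3 control litters lay within the MNR range. The highest litter was 1.55-fold above the lowest, and 1.28-fold without control litter D, where the ratio of the groups was 1.001. Single fetuses ran from 0.606%, in control litter B, to 1.20%, in control litter D, a range of 1.98-fold. Littermates differed by 1.03- to 1.46-fold, with a median of 1.14-fold, and by over 1.2-fold in 4 of 10 litters. The share of 7 globin genes was 3.87 ± 0.452% in MNR litters and 4.19 ± 0.869% in control litters, again highest in control litter D. The share of 20 hepatocyte markers was 22.0 ± 1.17% in MNR litters and 22.7 ± 0.727% in control litters. In control litter D it was 21.9%, the lowest control value, while MNR litters A, C and E were lower still, at 20.6, 21.5 and 21.6%. The part of hepatocyte RNA in the erythroid share was not tested.

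**Figure D4:**
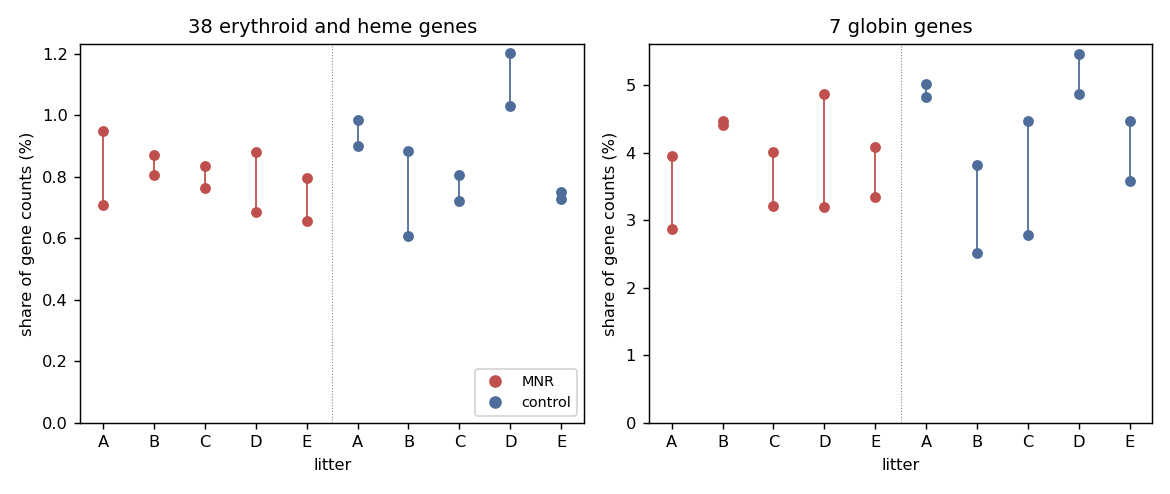
Share of all gene counts taken by the 38 erythroid and heme genes (left) and by 7 globin genes (right) in each fetus, in percent, with littermates joined by a line and MNR litters left of control litters. Both fetuses of control litter D hold the highest shares of the 38 genes, at 1.20 and 1.03%.

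Control litter D was the highest of all 10 litters for 32 of the 38 genes, and among the top 2 for 37, whereas it was highest for 15% of all genes tested. On average the 38 genes lay 0.37 log2 units above their mean there, and control litter A followed at 0.13. MNR litter E was lowest for 14 genes and control litter C for 11. At the level of fetuses, the first fetus of control litter D was highest for 32 genes, and the first fetus of control litter B was lowest for 16. That fetus is 1 of 3 with exocrine pancreas transcripts above 100 CPM in sum. Without these 3 fetuses the ratio of the erythroid share was 0.907. No member was called then, against 1.22% of all genes. At an unadjusted p under 0.05 (edgeR) there were 9 of the 38 genes, against 19.8% of all genes, and 30 of the 38 had a log2 fold change below 0.

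**Figure D5:**
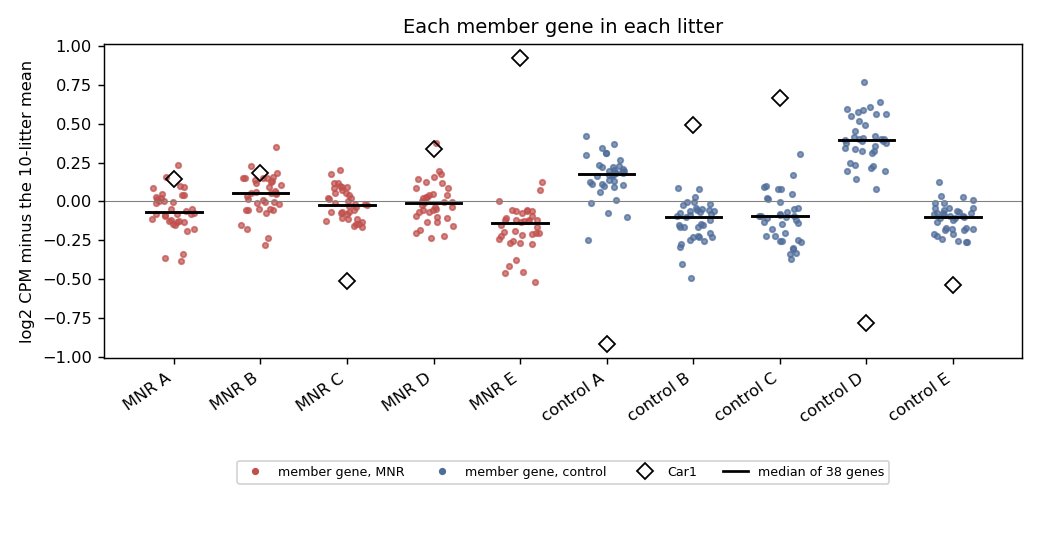
Log2 CPM of each of the 38 genes in each litter, as the difference from that gene's mean over 10 litters; dots are genes, bars their median, and diamonds Car1, with MNR litters left of control litters. Nearly all dots of control litter D lie above 0, with a mean of 0.37, while Car1 lies below 0 there.

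The members varied more between control litters than between MNR litters. The SD of log2 CPM was larger in control than in MNR litters for 35 of the 38 genes, against 53.1% of all genes, with medians of 0.12 in MNR and 0.25 in control litters. Over all genes those medians were 0.15 in MNR and 0.16 in control litters. The control SD was also larger for 13 of 15 proliferation genes, 10 of 10 B cell precursor markers and 10 of 12 megakaryocyte markers. It was larger for 11 of 14 other membrane and skeleton genes, 4 of 7 globin genes and 0 of 12 neutrophil markers. Without control litter D, 28 of the 38 genes still had the larger SD in control litters, against 49% of all genes, and the control median was 0.18. No test was made of this difference. Car1, Icam4 and Trim10 varied most between the 10 litters, with SDs of 0.64, 0.38 and 0.30 log2 units, and Bnip3l, Cpox and Rhag least, with 0.10, 0.11 and 0.14. The variance between litters exceeded what the spread between littermates accounts for in 37 of the 38 genes (97.4%), against 77.4% of all genes. The intraclass correlation, the fraction of variance shared by littermates, had a median of 0.38 for the 38 genes and 0.27 for all genes. It was highest for Icam4, at 0.74, and lowest for Cldn13, at -0.04.

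Between litters, 36 of the other 37 genes correlated positively with Slc4a1, with a median Pearson r of 0.815 over the 10 litters. All genes of a litter come from the same libraries with the same scaling, so r describes how the genes moved together in these litters. With permutation p-values adjusted over all 17572 genes other than Slc4a1, 3 of the 37 genes passed (adjusted p = 0.0402 each). Of all 17572 genes, 28 passed with a positive r (0.159%). Ermap had r = 0.955 and rho = 0.952 (permutation p = 5e-05 and 0.00012, adjusted p for rho 0.117). Epb4.9 had r = 0.932 and rho = 0.891 (permutation p = 8e-05 and 0.00121, adjusted p for rho 0.215). Tmod1 had r = 0.930 and rho = 0.988 (permutation p = 6e-05 and 3e-05, adjusted p for rho 0.0879), and no rho of a member passed. With control litters D and A left out, the 2 farthest from the median of Slc4a1, r was 0.846 for Ermap, 0.856 for Epb4.9 and 0.974 for Tmod1. With each group centred on its mean, no member passed, nor did any other gene with a positive r. Litters were permuted only within groups there, which limits how small p can be, and the median r of the 37 genes was 0.860. At most 1 member passed when any single litter was left out, against 0 to 17 of all genes.

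By role, the r with Slc4a1 overlapped, and no test compared the roles. The other 13 membrane, cytoskeleton and surface genes ran from 0.512 for Cldn13 to 0.955 for Ermap, with a median of 0.919, and 0.732 without control litters D and A. The 10 iron and heme genes ran from 0.223 for Alad to 0.932 for Urod, with a median of 0.787, and 0.471 without those litters. Among them Alas2 and Fech had r = 0.919 and 0.904, but Ppox and Cpox had 0.759 and 0.523. The 8 transcription and signalling genes ran from 0.439 for Tal1 to 0.860 for Hemgn, with a median of 0.735, and 0.290 without those litters. The 6 red cell enzyme and maturation genes ran from -0.594 for Car1 to 0.767 for Car2, with a median of 0.636, and 0.0883 without those litters. Gata1, Klf1 and Tal1 had r = 0.827, 0.679 and 0.439, and without those litters 0.241, 0.0710 and -0.197. Control litters D and A were left out as the farthest from the median of Slc4a1, which narrows its range and can by itself lower r. What the relation of these 3 genes with Slc4a1 rests on was not tested. The r was also lower without control litters D and A for Car2 (0.767, and -0.0511 without them) and for Uros (0.644, and -0.321 without them). For Alad r was -0.860 without those litters. Car1 was the one member with a negative r (permutation p = 0.0676, adjusted p = 0.480). Over all 37 genes the median r without those litters was 0.467, and 8 genes were below 0.

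No gene was called in 5 further lists of erythroid genes, and these lists were drawn up with earlier results of these data known. Of 14 other membrane and skeleton genes, 8 had a log2 fold change below 0, with a median of -0.01, and their median r with Slc4a1 was 0.825, and 0.674 without control litters D and A. Of 28 other regulators and maturation genes, 17 lay below 0, with a median of -0.08, and Cited2, a transcriptional coregulator, had the smallest p (log2 fold change 0.78, 95% interval 0.42 to 1.14, adjusted p = 0.0565). Among 11 other heme genes, 7 lay above 0, led by Hmox1, the heme-degrading oxygenase, with 109.8 ± 14.3 CPM in MNR litters and 78.5 ± 11.6 CPM in control litters (log2 fold change 0.48, 95% interval 0.24 to 0.73, adjusted p = 0.0645). Among 10 other iron handling genes, 5 lay above 0. Slc11a2, the iron transporter of the endosome, had the smallest p (log2 fold change -0.22, 95% interval -0.39 to -0.05, adjusted p = 0.158), followed by Steap3, the ferrireductase of the transferrin cycle (log2 fold change -0.29, 95% interval -0.52 to -0.05, adjusted p = 0.172). Of 10 erythropoietin and stress genes, 6 lay above 0. Cdkn1b, an inhibitor of the cell cycle, had the smallest p (log2 fold change 0.28, 95% interval 0.09 to 0.47, adjusted p = 0.111), followed by Fam132b, the erythroid hormone that lowers hepcidin, with 3.53 ± 1.88 CPM in MNR litters and 5.71 ± 2.50 CPM in control litters (adjusted p = 0.338).

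No gene was called in the lists of progenitor, proliferation, globin and other cell type markers. Of 12 progenitor genes, 10 lay above 0, with a median of 0.13, and Kit, the stem cell factor receptor, had the smallest p (log2 fold change 0.45, 95% interval 0.24 to 0.67, adjusted p = 0.0569). All 12 megakaryocyte and all 12 neutrophil markers lay above 0, with medians of 0.26 each, and 11 of 14 macrophage markers with a median of 0.13. All 15 proliferation genes lay below 0, with a median of -0.13, and each correlated positively with Slc4a1, with a median r of 0.744. Without control litters D and A that median was 0.218, and 5 of the 15 were below 0. Of 10 B cell precursor markers, 9 lay below 0 (median -0.40), as did all 10 stellate markers (median -0.26). The 10 endothelial markers split evenly (median 0.0049), 11 of 20 hepatocyte markers lay above 0 (median 0.03), and 2 of 7 globin genes did (median -0.10). Of 6 tested exocrine pancreas genes 2 lay above 0 (median -0.44). The part of these cell types in the values of the 38 genes was not tested.

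Transcript shares within a gene did not differ past the threshold. Of 166 transcripts of 27 members with several transcripts tested, none passed, nor did any of 48658 transcripts of all genes (0%). At an unadjusted p under 0.05 there were 5 of the 166 and 414 of the 48658. The 414 are far under 5% of the transcripts, the part that evenly spread p-values would give. The test was thus cautious, and its lack of calls does not show that shares were equal. Ank1-010 had the smallest p of the 166 (0.889 ± 0.348% in MNR litters, 0.591 ± 0.133% in control litters, unadjusted p = 0.00231). The gene-level test of edgeR called 0 of the 27 members and 3 of 10232 genes. Main transcripts held steady shares, such as Bpgm-001 with 73.7 ± 0.245% of the counts of its gene in MNR litters and 73.5 ± 0.893% in control litters. Gata1-001 held 91.3 ± 0.874% in MNR litters and 90.8 ± 0.553% in control litters, and Alas2-001 held 47.4 ± 0.191% in MNR litters and 47.0 ± 0.216% in control litters. Uros-008, which starts at the downstream site printed above, held 1.25 ± 0.212% in MNR litters and 0.722 ± 0.254% in control litters (unadjusted p = 0.0263, adjusted p = 0.999992). The sources used here do not say how reads that match several transcripts were treated, and near-identical transcripts held even shares, such as 50.3% in MNR and 49.9% in control litters for Hemgn-001.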

How the data were processed

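The deposited values are whole-number counts per transcript, 1 table per fetus, not normalised by the authors. Per the labels' protocols, polyadenylated RNA went into strand-preserving libraries. Per the submitters' processing notes, Bowtie2 and the mm9 build were used, with DESeq2 and edgeR also named, and the sources used here name no counting tool. The values of a deposited gene table differ from gene sums of these counts, for the 38 genes too, and it was not used. Transcript counts were summed per gene with GENCODE M1 for mm9, and transcripts matching no gene (0.0788% to 0.154% of counts) were left out.

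Low genes were dropped from the litter sums (5 per group) by filterByExpr at a minimum count of 10, TMM gave the scaling, and groups were compared by edgeR 4.0.16's quasi-likelihood test (R 4.3.3, two-sided, Benjamini-Hochberg over all genes). CPM of litters are TMM-scaled, as are those behind the spread between littermates. Printed and ranked CPM of single fetuses use the unscaled total of gene counts. TPM use annotated transcript lengths. Correlations use log2 CPM (prior count 2) and 100000 permutations, two-sided, and transcript shares were tested with diffSpliceDGE. Alternatives were other scalings, filters, tests (DESeq2 1.42.0, limma 3.58.1) and units, a block, and each litter left out. The fits were tested on simulated data.

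The members and gene lists were chosen with earlier results of these data known. Genes given by litter were 16 chosen members, plus those of smallest p in each direction and of most and least spread, and from other lists at most 3 genes of smallest p are named.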

Additional observations from a re-analysis of the deposited data

Results flagged for a closer look

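Of 80 sets of 5 litters examined, 4 held a litter far from the other 4 of its group, and chance gives about 1 in 20 sets. In 3 of them it was control litter D. Rhag had 133.57 CPM there, with the nearest control litter at 110.74 CPM. Cpox had 661.32 CPM, with the nearest control litter at 568.03 CPM. Ppox had 131.86 CPM, with the nearest control litter at 101.46 CPM. For Bnip3l, MNR litter B had 232.5 CPM, with the nearest MNR litter at 212.68 CPM.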

How the results depend on the processing

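The count of 0 called members held under every scaling, filter and litter left out, under limma-voom, with a single fetus per litter, and with the litter letter as a replicate block, and it was 1 (Bpgm, lower in MNR) in DESeq2 and in the fit on 20 fetuses. Over all genes the count was 117, and 178 with upper-quartile scaling, 1163 in DESeq2, 2301 over 20 fetuses, 1088 with limma-voom, 0 and 499 with fetus 1 or fetus 2 alone, 232 with the replicate block, 215 without the 3 fetuses with pancreas transcripts (chosen after seeing the data), and 0 to 843 with a litter left out; the cause was not tested. Litter letters do not pair the groups, since the dams differ. The median log2 fold change of the members ran from -0.14 to 0.0048 with a litter left out. The share ratio ran from 0.892 to 1.001, and the fold range between litters from 1.28 to 1.55 with a litter left out, and up to 1.58 without globin genes in the denominator. Members positively correlated with Slc4a1 were 3 (28 over all genes), 0 on group-centred values (0) and 5 with library totals only (37). They were 0 without those 3 fetuses (0) and 0 to 1 with a litter left out (0 to 17). No member transcript was called under any alternative. Sign changes occurred for 13 members, none of them called, with log2 fold changes near 0. With a litter left out they ranged from -0.089 to 0.083 for Ermap, -0.11 to 0.046 for Alas2, -0.059 to 0.12 for Spnb1, -0.0801 to 0.12 for Fech, -0.028 to 0.12 for Slc25a38, -0.034 to 0.16 for Trim58, -0.14 to 0.0104 for Epor, -0.13 to 0.079 for Slc4a1, -0.10 to 0.044 for Ank1, -0.23 to 0.12 for Icam4, -0.13 to 0.0295 for Urod, -0.047 to 0.055 for Cpox and -0.11 to 0.023 for Ppox. In Spnb1 the value was -0.028 with upper-quartile scaling, -0.012 with library totals only, -0.000201 with minimum count 50, -0.036 with fetus 2 alone and -0.029 without the 3 fetuses. In Fech it was -0.027 with upper-quartile scaling, -0.012 with library totals only, -0.012 with fetus 1 alone and -0.0102 without the 3 fetuses. In Cpox it was 0.0024 with no filter, 0.0103 over 20 fetuses, 0.017 with limma-voom and 0.074 with fetus 1 alone. In Slc25a38 it was -0.00621 with upper-quartile scaling, and with fetus 1 alone it was 0.012 in Ank1 and 0.011 in Ermap. With 5 litters per group, the median SE of a member's log2 fold change was 0.12, which limits the size of difference that could be called. The lowest litter count of a member was 174.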
